A study of Mus musculus with 6 samples.

Results

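Matrix metalloproteinases are the secreted and membrane-bound proteases that cut collagens, proteoglycans and other proteins of the extracellular matrix. The 10 genes described here, Mmp2, Mmp3, Mmp9, Mmp11, Mmp13, Mmp14, Mmp15, Mmp16, Mmp19 and Mmp23, were taken by symbol from the 22032 rows of an expression matrix of mouse cartilage cells, and all 10 had a row. Their levels were measured by RNA-seq in 3 embryonic and 3 adult samples, and the question was how expression differed between embryonic and adult chondrocytes. By the study's methods, the adult cells came from male B6 mice of 2 months and both stages were sorted as BMPR1B+ cells that lacked lineage markers and alkaline phosphatase. BMPR1B is a surface receptor for bone morphogenetic proteins, used to enrich chondrocytes. The lineage markers named for the adult sort are CD31, CD45 and Ter119, which mark endothelial, blood and erythroid cells. The labels place all 6 samples in the knee and give 16.5 weeks for the embryonic samples, where the methods give embryonic day 16.5. No treatment or altered allele is named for either stage. The strain and sex of the embryos and the number of animals behind each sample are not given in the sources used here, so the p-values below measure the spread between these samples.

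These proteases are made as proenzymes. A cysteine of the propeptide occupies the zinc of the active site until the propeptide is removed, by other metalloproteinases, by the plasmin system or, for several members, by furin-like convertases inside the cell. The tissue inhibitors of metalloproteinases, or TIMPs, then block the active enzymes. In cartilage the family is known for the clearing of matrix when the growth plate is replaced by bone and for the loss of type II collagen and aggrecan in osteoarthritis. Transcript levels are given as TPM, the unit of the deposited matrix, in which all transcripts of a sample sum to 1000000. TPM values are corrected for transcript length and can be compared between genes. Fold changes are differences of log2(TPM + 1), adult minus embryonic.

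The level of most members changed with stage, and the direction split the family. Of the 10 members, 2 rose in the adult samples (Mmp3 and Mmp13), 5 fell (Mmp11, Mmp14, Mmp15, Mmp16 and Mmp23) and 3 did not pass the test (Mmp2, Mmp9 and Mmp19), at an adjusted p under 0.05 by limma with Benjamini-Hochberg adjustment over all 13125 genes tested. Over all genes tested, 45.3% passed in either direction, 23.9% as higher and 21.4% as lower in the adult samples. All 10 members passed the filter of a mean of at least 1 TPM, of which Mmp11 and Mmp15 did so only through their embryonic samples. A call for Mmp11 or Mmp15 could therefore only be lower. Without them, the calls were lower for Mmp14, Mmp16 and Mmp23 and higher for Mmp3 and Mmp13. The stages did not overlap for 8 of the 10 members, with adult levels above for 2 and below for 6, while 56.5% of all genes tested had stages that did not overlap. The median log2 fold change of the 10 members was -1.48, and that of all genes tested was 0.16. Mmp11 and Mmp15 enter both this median and the members whose stages did not overlap. The member that changed most, Mmp3, was also the most abundant of the 10 in every adult sample.

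The promoters of Mmp3 and Mmp13, the members that rose, are shown with those of Mmp14, the most abundant member in the embryonic samples, and Mmp10, a neighbour of Mmp3 with which it shares transcript sequence. Each is the 250 bases before the gene's start in RefSeq for GRCm38.p6, read 5′ to 3′ on the strand of the gene, which is the plus strand for all 4. Capitals mark matches to the AP-1 motif TGANTCA, the RUNX motif ACCACA, the ETS motif AGGAAG or the TATA motif TATAAA, each searched on both strands. The window of Mmp14 ends upstream of the start that GENCODE gives for the gene, and that of Mmp10 likewise.
Mmp3, chr9:7445572-7445821: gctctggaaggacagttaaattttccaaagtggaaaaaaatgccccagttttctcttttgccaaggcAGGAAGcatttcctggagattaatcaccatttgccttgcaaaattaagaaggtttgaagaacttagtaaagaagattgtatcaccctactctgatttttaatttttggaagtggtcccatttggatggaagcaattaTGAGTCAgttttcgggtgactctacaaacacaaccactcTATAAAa
Mmp13, chr9:7272264-7272513: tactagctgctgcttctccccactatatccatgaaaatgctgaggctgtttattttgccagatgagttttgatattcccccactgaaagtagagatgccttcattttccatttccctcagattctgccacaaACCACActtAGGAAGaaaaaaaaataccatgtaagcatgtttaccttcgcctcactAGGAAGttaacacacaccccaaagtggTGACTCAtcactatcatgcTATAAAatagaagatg
Mmp10, chr9:7502092-7502341: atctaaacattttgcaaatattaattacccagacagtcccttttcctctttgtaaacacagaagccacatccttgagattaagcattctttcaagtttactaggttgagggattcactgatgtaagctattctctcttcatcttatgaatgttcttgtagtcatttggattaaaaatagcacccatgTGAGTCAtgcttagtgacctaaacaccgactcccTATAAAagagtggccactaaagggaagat
Mmp14, chr14:54431348-54431597: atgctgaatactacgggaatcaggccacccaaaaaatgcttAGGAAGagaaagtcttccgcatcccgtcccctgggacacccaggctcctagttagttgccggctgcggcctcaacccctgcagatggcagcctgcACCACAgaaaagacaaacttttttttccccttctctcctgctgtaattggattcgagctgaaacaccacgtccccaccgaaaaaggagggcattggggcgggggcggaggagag

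The Mmp3 window held an AP-1 match 46 to 40 bases before the start, an ETS match 183 to 178 bases before it and a TATA match 7 to 2 bases before it. The Mmp13 window held an AP-1 match at 35 to 29 bases, a RUNX match at 118 to 113 bases, ETS matches at 109 to 104 and 62 to 57 bases and a TATA match at 16 to 11 bases before the start. In the Mmp10 window the AP-1 match lay at 63 to 57 bases and the TATA match at 29 to 24 bases. The Mmp14 window had a RUNX match at 114 to 109 bases and an ETS match at 209 to 204 bases, with no match to the AP-1 or TATA letters. GC content was 37.6% for Mmp3, 40.4% for Mmp13, 37.2% for Mmp10 and 55.2% for Mmp14. None of these matches overlapped another.

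RefSeq windows were given for 6 of the 10 members, and Mmp2, Mmp9, Mmp16 and Mmp19 had none. Mmp3 and Mmp13 lie in a cluster of 10 metalloproteinase genes on chromosome 9. Of the 10 genes of the cluster, 8 had an AP-1 match in a window (Mmp7, Mmp12 and Mmp23 have more than 1 RefSeq start and so more than 1 window), 7 a TATA match, 6 an ETS match and 4 a RUNX match. For comparison, the AP-1 letters occurred in 6.75% of 32817 promoter windows of the same length, TATA in 12.4%, ETS in 29.5% and RUNX in 14.0%. Among the other 4 members with a window (Mmp11, Mmp14, Mmp15 and Mmp23), 0 had an AP-1 or TATA match, 2 had a RUNX match (Mmp14 and Mmp23) and 1 had an ETS match (Mmp14). Within the cluster, Mmp1a, Mmp1b, Mmp7 and Mmp20 had an AP-1 match and were listed at 0 in all 6 samples.

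**Figure D1:**
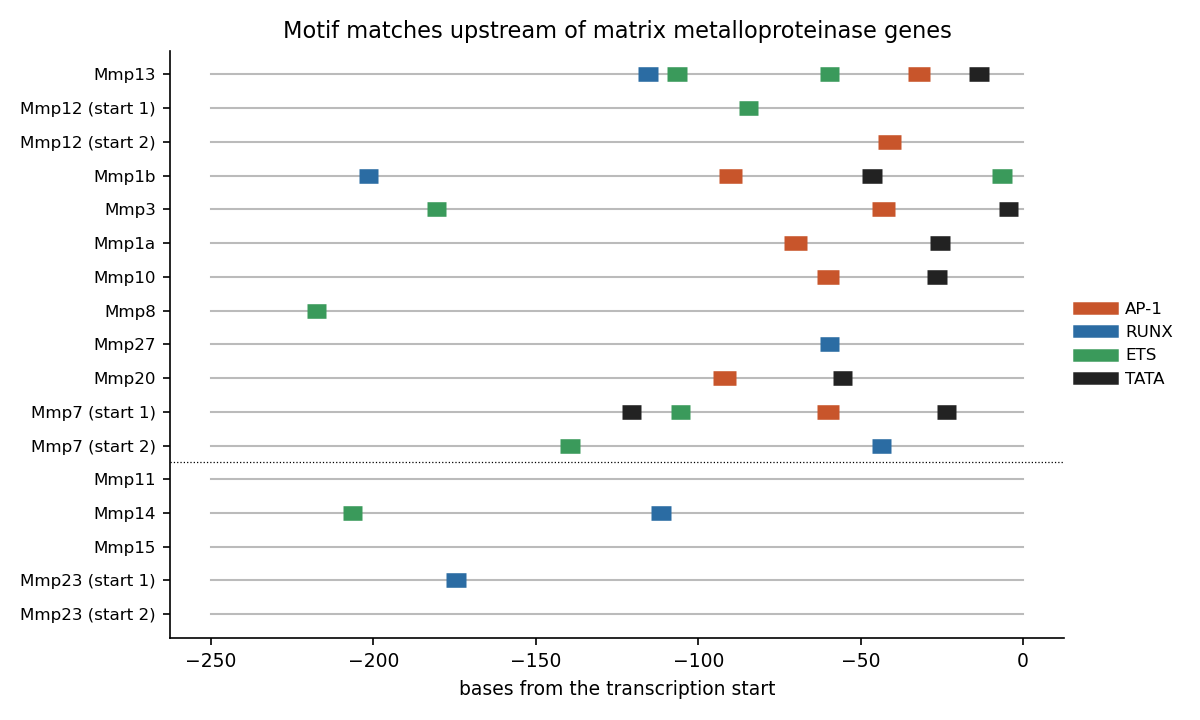
Positions of motif matches in the 250 bases before the start of matrix metalloproteinase genes, in bases from the transcription start (x axis), with a row for each window and a color for each motif, the cluster above the dotted line and the other members below it. AP-1 matches appear in windows of 8 of the 10 genes of the chromosome 9 cluster and of 0 of the 4 other members with a window. The AP-1 letters occurred in 6.75% of 32817 promoter windows of the same length.

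Stromelysin-1, encoded by Mmp3 (chr9:7445822-7455975, plus strand), cuts proteoglycans and fibronectin and activates other proenzymes of the family. Its level was 7.76, 7.58 and 13.2 TPM in embryonic samples 1, 2 and 3 and 6516, 4182 and 7697 TPM in adult samples 1, 2 and 3. Every adult sample lay far above every embryonic sample. The log2 fold change was 9.19 (SE 0.26, 95% interval 8.59 to 9.78, limma adjusted p = 1.1e-07), and the mean level was 646-fold higher in the adult samples. Among the 22032 rows, Mmp3 ranked 9, 16 and 7 in the adult samples, where it stood with the most abundant transcripts, and 8924, 8927 and 7720 in the embryonic ones. Of the 50-base stretches of the Mmp3 transcripts, 8.39% also occur in another gene, nearly all of them in Mmp10, and reads of 50 bases from those stretches cannot be placed by sequence alone.

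Collagenase-3, encoded by Mmp13 (chr9:7272514-7283331, plus strand), cuts the triple helix of type II collagen and is made by late hypertrophic chondrocytes and osteoblasts. Its level was 4.90, 7.80 and 14.4 TPM in embryonic samples 1, 2 and 3 and 143, 179 and 226 TPM in adult samples 1, 2 and 3. Both sets were well apart, and the 3 samples of each stage spread over a few fold at most. The log2 fold change was 4.28 (SE 0.34, 95% interval 3.51 to 5.05, limma adjusted p = 2.87e-05), with a mean 20.2-fold higher in the adult samples. None of the 50-base stretches of Mmp13 was found in another gene. The level of Mmp3 was 0.913 to 1.58 times that of Mmp13 in the embryonic samples and 23.4 to 45.6 times in the adult samples.

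Membrane-bound members were the main metalloproteinase transcripts of the embryonic cells. Mmp14 (chr14:54431612-54445364, plus strand) encodes MT1-MMP, a collagenase of the cell surface that activates pro-MMP2. It was at 522, 429 and 496 TPM in embryonic samples 1, 2 and 3 and at 73.6, 79.4 and 172 TPM in adult samples 1, 2 and 3. All adult levels were below all embryonic levels, and adult sample 3 stood above the other adult samples. Mmp14 fell by 2.25 on the log2 scale (SE 0.29, 95% interval -2.91 to -1.59, limma adjusted p = 0.000374), a mean 4.45-fold higher in the embryonic samples.

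Mmp16 (chr4:17852893-18119145, plus strand), for the related MT3-MMP, was at 114, 91.0 and 85.8 TPM in embryonic samples 1, 2 and 3 and at 12.3, 11.3 and 18.9 TPM in adult samples 1, 2 and 3. The stages were again separate, and the embryonic samples were close together. Its level fell by 2.71 on the log2 scale (SE 0.24, 95% interval -3.25 to -2.18, limma adjusted p = 4.64e-05), and the embryonic mean was 6.85-fold higher. Mmp15 (chr8:95352268-95375080, plus strand), for MT2-MMP, was much lower than either: 3.53, 5.91 and 1.32 TPM in embryonic samples 1, 2 and 3 and 0, 0.16 and 0 TPM in the adult samples. It was close to the lower end of the scale in every adult sample, and no fold change is given (limma adjusted p = 0.0162). Its call was lost without embryonic sample 1 (adjusted p = 0.0567) or sample 2 (adjusted p = 0.0656). The summed level of these 3 membrane-type genes was 525 to 640 TPM in the embryonic and 85.9 to 191 TPM in the adult samples.

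Mmp23 (chr4:155650655-155653384, minus strand) encodes a protease anchored by its amino-terminal end, which furin-like cleavage releases. It was at 28.6, 28.1 and 21.0 TPM in embryonic samples 1, 2 and 3 and at 2.94, 7.39 and 11.0 TPM in adult samples 1, 2 and 3. The adult samples were all lower but spread more widely than the embryonic ones. Mmp23 fell by 1.86 on the log2 scale (SE 0.42, 95% interval -2.81 to -0.91, limma adjusted p = 0.00695), and the embryonic mean was 3.65-fold higher.

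Mmp11 (chr10:75923222-75936496, minus strand) encodes stromelysin-3, which is cut by furin and leaves the cell in active form. It was at 19.1, 8.23 and 35.6 TPM in embryonic samples 1, 2 and 3, and at 0.934 TPM in adult sample 1 and 0 in adult samples 2 and 3. The embryonic samples all had the transcript, and the adult samples were at or near 0, so no fold change is given (limma adjusted p = 0.000785). Exons of Mmp11 overlap those of Chchd10 on the other strand by 155 bases, 3.72% of its 50-base stretches are shared with that gene, and the cDNA kit named in the methods does not keep the strand.

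The gelatinases did not pass the test. Mmp2 (chr8:92827291-92853420, plus strand) encodes gelatinase A, which degrades denatured collagen and is activated at the cell surface by MT1-MMP. Its level was 363, 312 and 340 TPM in embryonic samples 1, 2 and 3 and 69.9, 186 and 297 TPM in adult samples 1, 2 and 3. The stages did not overlap, but the adult samples were widely spread and the highest of them came close to the embryonic range. The log2 fold change was -1.10 (SE 0.43, 95% interval -2.07 to -0.13, limma adjusted p = 0.0636). Without adult sample 3 the log2 fold change was -1.56 (adjusted p = 0.00843), and without adult sample 1 it was -0.52 (adjusted p = 0.0696). Median-of-ratios scaling also put Mmp2 past the threshold (log2 fold change -1.25, adjusted p = 0.0397).

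Mmp9 (chr2:164940780-164955850, plus strand), for gelatinase B, is known for its high level in osteoclasts and neutrophils. It was at 4.91, 2.66 and 2.34 TPM in embryonic samples 1, 2 and 3 and at 6.63, 3.44 and 1.41 TPM in adult samples 1, 2 and 3. Levels were low throughout and the stages overlapped. The difference on the log2 scale was 0.06 with a 95% interval of -1.14 to 1.26 (SE 0.53, limma adjusted p = 0.936). Mmp19 (chr10:128790910-128800824, plus strand), whose product cuts basement membrane proteins, was at 3.08, 0.617 and 6.31 TPM in embryonic samples 1, 2 and 3 and at 0.934, 2.22 and 10.3 TPM in adult samples 1, 2 and 3. Its stages overlapped over most of their range (log2 fold change 0.18, SE 0.77, 95% interval -1.57 to 1.93, limma adjusted p = 0.861). The level of Mmp19 is uncertain, since its exons overlap those of Tmem198b and Gm47093 on the other strand and 24.7% of its 50-base stretches are shared with them.

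**Figure D2:**
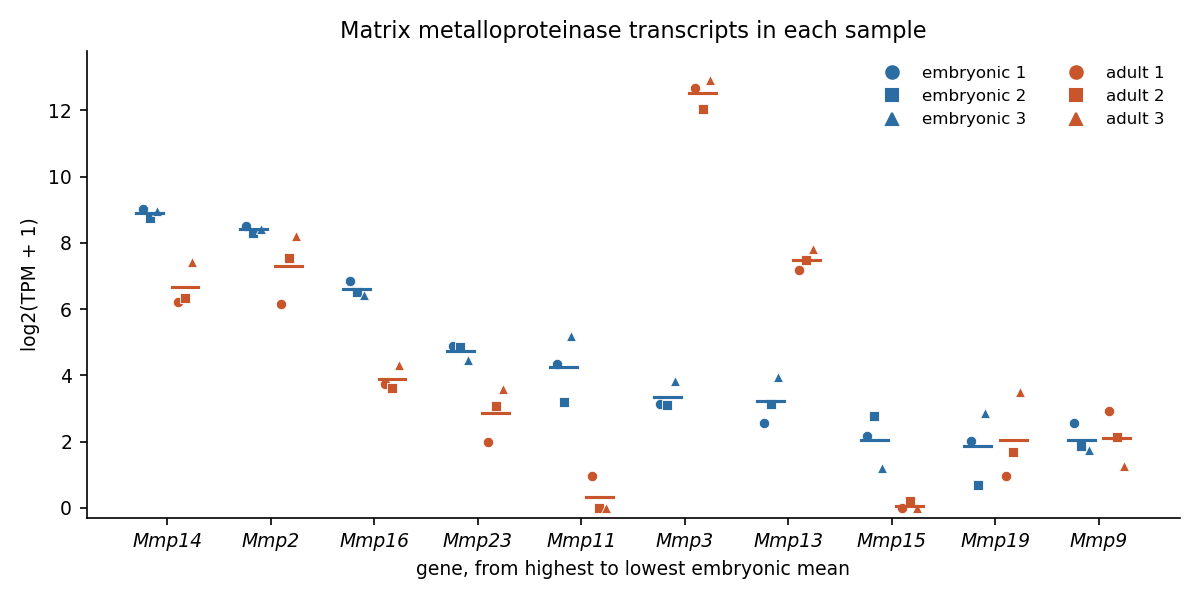
Levels of the 10 matrix metalloproteinase genes as log2(TPM + 1) (y axis) in the 3 embryonic and 3 adult samples, each point a sample, each marker shape a replicate number and each short line the mean of a stage. Mmp3 goes from at most 13.2 TPM in the embryonic samples to at least 4182 TPM in the adult ones, Mmp14, Mmp16 and Mmp23 are lower in every adult sample, and Mmp9 and Mmp19 overlap.

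**Figure D3:**
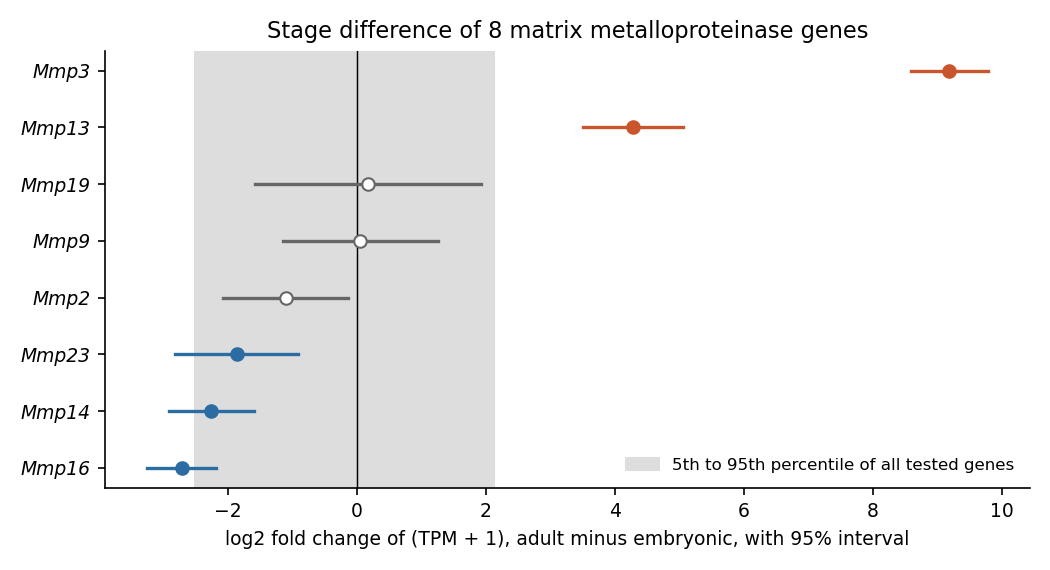
Log2 fold change (adult minus embryonic, x axis) with its 95% interval for the 8 members that were not at or near 0 in a stage, beside the range that holds the middle 90% of all 13125 genes tested (gray band, -2.51 to 2.13). Mmp3 and Mmp13 lie to the right of the band, and Mmp16 just to its left.

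The order of the members by level differed between the stages. In the embryonic samples Mmp14 was highest, followed by Mmp2, Mmp16 and Mmp23, and the range of each of these was wholly below that of the member before it. The remaining 6 members, from Mmp11 down to Mmp9, each overlapped the neighbour above. In the adult samples Mmp3 stood alone at the top. Mmp2, Mmp13 and Mmp14 came next with overlapping ranges, and Mmp16 and then Mmp23 lay below them. Mmp19 and Mmp9 overlapped with Mmp23 and with each other, and Mmp11 and Mmp15 were last.

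Summed over the 10 genes, the transcripts made 893 to 1071 TPM in the embryonic and 4650 to 8433 TPM in the adult samples. Mmp3 alone held 0.724% to 1.29% of the embryonic sum and 89.9% to 95.5% of the adult sum. Without Mmp3 the comparison turned around, with 885 to 1063 TPM in the embryonic and 310 to 736 TPM in the adult samples. Mmp14 held 48.0% to 48.8% of the embryonic sum and Mmp2 held 33.5% to 35.0%, shares that were nearly the same in all 3 embryonic samples. The ratio of Mmp2 to Mmp14 was 0.686 to 0.729 in the embryonic samples and 0.950, 2.34 and 1.73 in adult samples 1, 2 and 3.

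**Figure D4:**
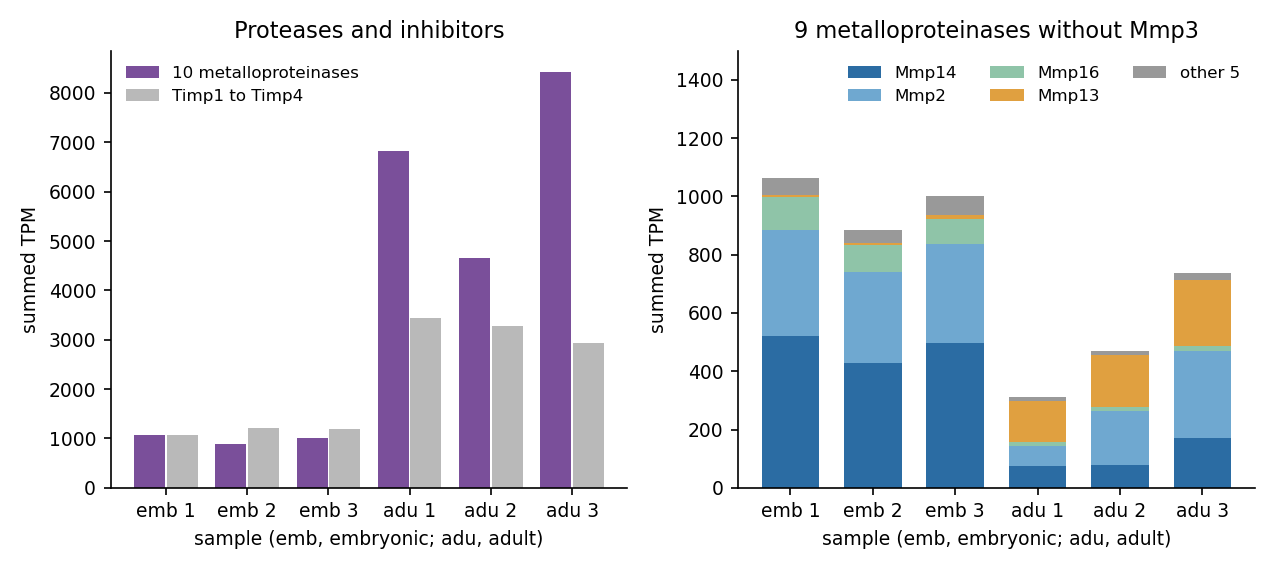
Left, summed TPM of the 10 matrix metalloproteinase genes and of Timp1 to Timp4 in each sample. Right, summed TPM of the 9 members without Mmp3, stacked by gene. The adult sums reach 8433 TPM with Mmp3 and 736 TPM without it.

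Adult samples varied more than embryonic ones. The SD of log2(TPM + 1) was larger in the adult group for 7 of the 10 members, and for 62.1% of all genes tested. Adult sample 3 had the highest adult level for 7 members (37.2% of genes tested) and adult sample 1 the lowest for 5 (34.7%). Both held for Mmp2, Mmp13, Mmp14, Mmp19 and Mmp23, and for 19.9% of genes tested. Adult sample 1 was also lowest for the fibrous collagen genes Col1a1 (170, 603 and 637 TPM in adult samples 1, 2 and 3) and Col3a1 (148, 312 and 396 TPM). Their part in the order of the adult samples was not tested.

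For each member that passed the test, the gene with the most similar pattern among all genes tested was found by the Euclidean distance between centred log2(TPM + 1) values over the 6 samples. The nearest to Mmp3 was Serpina1b, a serine protease inhibitor, at a distance of 2.31. Serpina1b was at 121, 298 and 268 TPM in adult samples 1, 2 and 3, and every embryonic sample was listed at 0. Mmp13 was nearest to Crebl2 (distance 0.52), at 0.626 to 1.82 TPM in the embryonic and 25.0 to 44.1 TPM in the adult samples. Mmp14 was nearest to Adamts4 (distance 0.25), an aggrecan-cutting protease of another family, at 10.1 to 13.4 TPM in the embryonic and 0.919 to 3.75 TPM in the adult samples. The nearest genes were F2rl1 for Mmp16 (distance 0.20), Rgs7bp for Mmp23 (0.48), Bex4 for Mmp11 (0.82) and Chrm3 for Mmp15 (0.37). In the adult samples F2rl1 was at 0 to 0.680 TPM, Rgs7bp at 0.347 to 3.60 TPM, Chrm3 at 0 to 0.0788 TPM and Bex4 at 0. At such levels the pseudocount of 1 bears on the distance, and Mmp16 itself was at 11.3 to 18.9 TPM there. For 6 of these 7 members the distance was under 1 on the log2 scale, and Mmp3 was the exception.

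The rest of the family had 13 rows, of which 3 passed the filter on low levels: Mmp12, Mmp28 and Mmp10. Mmp10 passed only through its adult samples and is given by its values. Mmp12, encoding the macrophage elastase, was at 2.36, 5.52 and 0.988 TPM in embryonic samples 1, 2 and 3 and at 17.7, 11.9 and 20.7 TPM in adult samples 1, 2 and 3. All adult levels were above all embryonic levels (log2 fold change 2.30, SE 0.49, limma adjusted p = 0.00516). Mmp28, encoding epilysin, was at 2.92, 2.00 and 5.33 TPM in embryonic samples 1, 2 and 3 and at 20.5, 26.8 and 22.5 TPM in adult samples 1, 2 and 3, again without overlap (log2 fold change 2.52, SE 0.37, limma adjusted p = 0.000779). Its exons overlap those of 1700020L24Rik.

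Mmp10, encoding stromelysin-2, was at 0, 0 and 0.247 TPM in embryonic samples 1, 2 and 3 and at 0.537, 10.3 and 14.1 TPM in adult samples 1, 2 and 3. Adult sample 1 was close to the embryonic samples, and the call (limma adjusted p = 0.0313) was lost in 8 of 16 alternative settings. It shares 8.37% of its 50-base stretches with Mmp3, and how reads of those stretches were divided between the genes was not tested. Another 6 genes, Mmp1a, Mmp1b, Mmp7, Mmp8, Mmp20 and Mmp27, were listed at 0 in all 6 samples. The highest level among the other 4 was 2.40 TPM.

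In the cluster on chromosome 9 (chr9:7272514-7699585), the genes lie in the order Mmp13, Mmp12, Mmp1b, Mmp3, Mmp1a, Mmp10, Mmp8, Mmp27, Mmp20 and Mmp7. Of the 4 that passed the filter, Mmp13, Mmp12 and Mmp3 rose, Mmp10 passed it only through its adult samples, and the other 6 genes were those listed at 0. Genes listed at 0 lay between expressed ones, since Mmp1b and Mmp1a lie on either side of Mmp3. GENCODE gives Mmp1a as a polymorphic pseudogene. A rise was not confined to the cluster, since Mmp28 on chromosome 11 also rose.

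**Figure D5:**
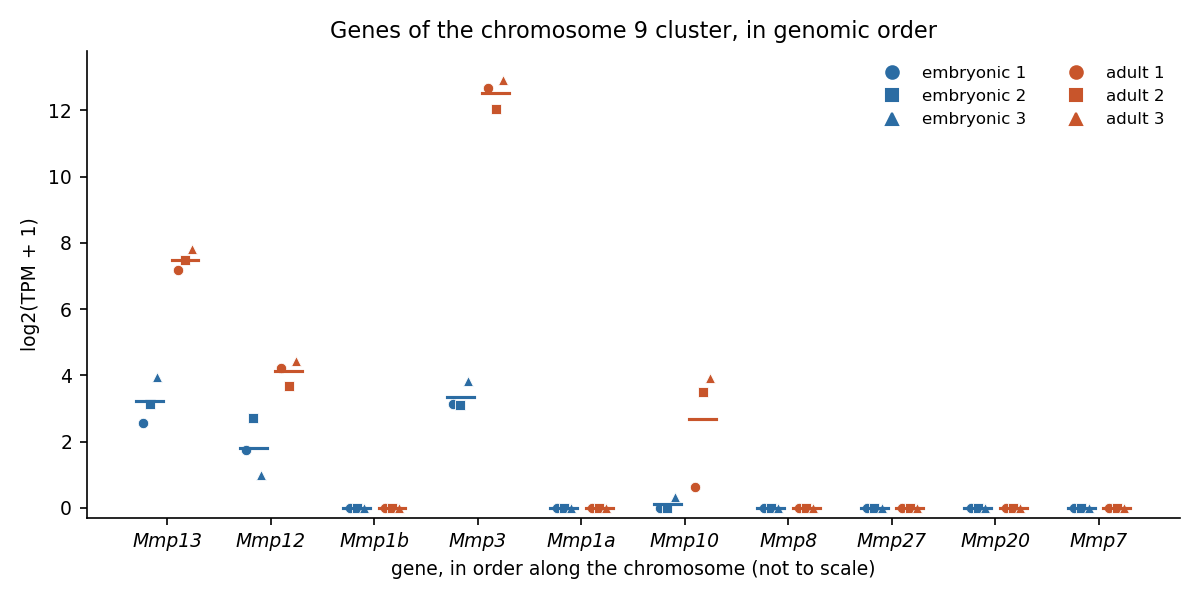
Levels of the 10 genes of the chromosome 9 cluster as log2(TPM + 1) (y axis) in chromosomal order (x axis), each point a sample. Mmp13, Mmp12, Mmp3 and Mmp10 are above 0 in the adult samples, with Mmp3 at 4182 to 7697 TPM, and the other 6 genes are at 0 in all 6 samples.

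Of the inhibitors of the family, 5 of 6 listed genes were tested, 3 rose, 0 fell and 2 did not pass, with a median log2 fold change of 0.39. Over all genes tested, 23.9% passed as higher and 21.4% as lower, and the counts of this list and of those below are to be read beside these shares. Whether any list differs from them was not tested. Timp3, which is bound to the matrix, was at 104, 90.5 and 91.7 TPM in embryonic samples 1, 2 and 3 and at 1392, 1387 and 1289 TPM in adult samples 1, 2 and 3. It showed the largest rise of the list and little spread within a stage (log2 fold change 3.82, limma adjusted p = 1.41e-07). Timp1 rose by 1.14 (adjusted p = 0.00148). Timp2, the inhibitor that takes part in the activation of pro-MMP2, had a log2 fold change of 0.39 (adjusted p = 0.0199), a call lost in 6 of 17 alternative settings, with an adjusted p of up to 0.109 under median-of-ratios scaling. A2m, a trap for proteases of many classes, was at 4.81 to 6.99 TPM in the embryonic and 1.42 to 7.13 TPM in the adult samples. The 10 members together were 0.734 to 1.01 times the sum of Timp1 to Timp4 in the embryonic samples and 1.42 to 2.88 times in the adult samples. Without Mmp3, these ratios were 0.728 to 0.998 and 0.0901 to 0.252.

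Among the 10 listed activators, 9 were tested, 1 rose, 2 fell and 6 did not pass (median log2 fold change 0.24). Plau, encoding urokinase, which turns plasminogen into plasmin, was at 56.8 to 84.0 TPM in the embryonic and 9.52 to 17.9 TPM in the adult samples (log2 fold change -2.20, limma adjusted p = 0.000337). Plg, for plasminogen itself, was listed at 0 in all 6 samples. Htra1, the gene that rose, had a log2 fold change of 1.17 (adjusted p = 0.000388). It encodes a serine protease of cartilage that is neither a furin-like convertase nor part of the plasmin system. Pcsk5, a convertase related to furin, had a log2 fold change of -0.90 (adjusted p = 0.0401), which was past the threshold in 8 of 17 alternative settings. Plat, encoding tissue plasminogen activator, was at 16.7 to 30.8 TPM in the embryonic and 20.4 to 45.3 TPM in the adult samples.

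Of 8 genes for uptake and surface binding of the proteases, 7 were tested, 2 rose, 2 fell and 3 did not pass (median -0.29). Lrp1, the scavenger receptor that takes up several secreted metalloproteinases, was at 187 to 272 TPM in the embryonic and 892 to 911 TPM in the adult samples (log2 fold change 1.99, limma adjusted p = 1.92e-05). Sdc4, a heparan sulfate proteoglycan, rose by 1.19 (adjusted p = 0.000593). Mrc2, a receptor that takes up cut collagen, fell by 1.88 on the log2 scale (adjusted p = 2.52e-05). Cd44, the hyaluronan receptor, fell by 1.51 on that scale (adjusted p = 3.82e-05).

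Of 20 matrix proteins that the family cuts, all were tested, 5 rose, 12 fell and 3 did not pass (median -1.73). Prg4, for the lubricin of the joint surface, was at 123 to 194 TPM in the embryonic and 23820 to 26390 TPM in the adult samples (log2 fold change 7.32, limma adjusted p = 8.76e-08). Matn3 fell by 6.05 (adjusted p = 2.34e-06) and Col9a1 fell by 5.48 on the log2 scale (adjusted p = 1.56e-06), both for proteins that bind the cartilage collagen fibril. Matn1, from the same matrilin family as Matn3, was at 752 to 891 TPM in the embryonic samples and listed at 0 in every adult sample. It passed the filter only through its embryonic samples, so it could only be counted among those that fell.

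The list of transcription factors with published roles at these genes had 22 entries, of which 21 were matched and tested. Of these, 4 rose, 7 fell and 10 did not pass (median -0.32), and 11 fell under median-of-ratios scaling. Atf3 was at 627 to 685 TPM in the embryonic and 80.5 to 138 TPM in the adult samples (log2 fold change -2.56, limma adjusted p = 2.04e-05). Epas1, for the hypoxia factor HIF-2 alpha, was at 25.7 to 34.7 TPM in the embryonic and 102 to 133 TPM in the adult samples (log2 fold change 1.92, adjusted p = 6.88e-05). Etv5 fell by 1.40 on the log2 scale (adjusted p = 0.000887), and Cebpb rose by 1.31 (adjusted p = 4.39e-05). Within the list, the 8 AP-1 genes (the Fos and Jun genes and Atf3) had 1 that rose, Junb, 4 that fell, Fosb, Jun, Jund and Atf3, and 3 that did not pass. Their summed level was 2650 to 3019 TPM in the embryonic and 1823 to 2222 TPM in the adult samples. This grouping was made after the values were seen.

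Of 16 inducing cytokines and receptors, 13 were tested, 5 rose, 4 fell and 4 did not pass (median 0.27). Il1r1, the receptor for interleukin-1, which induces Mmp3 and Mmp13 in cultured chondrocytes, was at 82.0 to 92.3 TPM in the embryonic and 15.6 to 18.8 TPM in the adult samples. The stages were far apart and it fell by 2.27 on the log2 scale (limma adjusted p = 2.35e-05). Lif fell by 1.48 on that scale (adjusted p = 0.00905). Ddr2, a collagen receptor upstream of Mmp13, rose by 1.46 (adjusted p = 4.21e-05), and Tgfb1 rose by 1.31 (adjusted p = 0.000156). Osm, for oncostatin M, was listed at 0 in all 6 samples.

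Several marker lists of cell types also held genes that passed, beside 23.9% of all genes tested as higher and 21.4% as lower. Of 7 chondrocyte markers, the adult samples had 2 higher (Sox9 and Comp) and 4 lower (Col2a1, Col9a1, Matn3 and Hapln1). Their sum was 18870 to 20270 TPM in the embryonic and 8445 to 11410 TPM in the adult samples, where Col2a1 alone was at 3166 to 7084 TPM. The markers were not all abundant in the adult samples, since Matn3 was at 1.11 to 3.65 TPM and Col9a1 at a mean of 44.8 TPM. Beside the rise of Mmp3, all 4 genes listed for the superficial zone and synovial lining (Prg4, Thbs4, Cilp and Clu) were higher. Their sum was 425 to 485 TPM in the embryonic and 31180 to 37820 TPM in the adult samples, mostly through Prg4. Cilp encodes a protein named for the intermediate layer of cartilage, so its place on this list is uncertain. Thbs4 passed narrowly (log2 fold change 0.615, limma adjusted p = 0.0467), and the number of the list that passed ranged from 3 to 4 over the alternative settings. Beside Mmp13, 4 of the 6 tested hypertrophic markers (Col10a1, Spp1, Ibsp and Alpl) were higher. The list summed to 608 to 853 TPM in the embryonic and 3546 to 5825 TPM in the adult samples. Alpl encodes alkaline phosphatase, which the sort selected against. Pth1r and Panx3 were lower, and Ihh was listed at 0 in all adult samples. Panx3 passed the filter only through its embryonic samples, so it could only be called lower. Among osteoblast markers, 3 were higher (Bglap, Bglap2 and Ibsp) and 2 lower (Dmp1 and Col1a1), and Sost was at 0 in all 6 samples. Bglap and Bglap2 were at 0 in all embryonic samples and passed the filter only through the adult ones, so they could only be called higher. The list summed to 4908 to 5989 TPM and 528 to 1077 TPM, mostly through Col1a1 (4862 to 5971 TPM and 170 to 637 TPM). The part of these markers in the results for Mmp3 and Mmp13 was not tested.

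Beside the fall of Mmp14, Mmp16 and Mmp23, 4 of 7 fibroblast and tendon markers (Scx, Tnmd, Col3a1 and Dpt) were lower and 0 higher, with a sum of 5269 to 5804 TPM in the embryonic and 431 to 698 TPM in the adult samples. Endothelial markers, of which Tek was lower, summed to at most 33.3 TPM in any sample. Muscle markers summed to at most 10.7 TPM and erythroid markers to at most 60.8 TPM. Tnmd and Tek passed the filter only through their embryonic samples, so they could only be called lower. Beside Mmp9 and Mmp12, the 2 tested osteoclast markers, Acp5 and Ctsk, were higher, with sums of the list of 83.8 to 105 TPM and 286 to 551 TPM, while Dcstamp was at 0 in all 6 samples and Oscar and Calcr in all adult ones. The macrophage and leukocyte list summed to 6.52 to 19.8 TPM in the embryonic and 401 to 477 TPM in the adult samples, mostly through Cd14. Cd14 and Cd68 rose among 3 tested genes. The other tested gene, Lyz2, was at 0.574, 0 and 1.08 TPM in embryonic samples 1, 2 and 3. It was at 30.6, 0.706 and 8.14 TPM in adult samples 1, 2 and 3 and did not pass (limma adjusted p = 0.0642). Ptprc, Csf1r, Adgre1 and Tyrobp were at most 2.29 TPM in every sample. The neutrophil list was at 0 in all embryonic samples and at 5.55 to 182 TPM in the adult samples, and Mmp8, the neutrophil collagenase, was at 0. Of its 5 tested genes 2 passed, S100a8 (adjusted p = 0.0469) and S100a9 (adjusted p = 0.0482), but both were at 0 in adult sample 2 and had passed the filter only through the other adult samples, and the number that passed ranged from 0 to 2 over the alternative settings. The part of these cells in the results was not tested, and a different mix of cells and a different level per cell cannot be told apart in bulk samples.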

How the data were processed

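RNA was sequenced from 3 embryonic and 3 adult samples of sorted mouse cartilage cells, grouped by the stage in their labels. By the methods, cDNA was made with random and poly(T) primers and sequenced in single-end reads of 50 bases, while the labels name a Kapa mRNA-Seq kit. The authors mapped reads to GRCm38, estimated transcript levels with RSEM (its version is not given in the sources used here) and deposited log2 values, log2(TPM + 1) per gene. Taken back to TPM, each sample sums to 1000000, so the values keep no read depth, no count test was run, and precision is known only from how far the 3 samples of each stage differ. Of all genes, 7314 to 7656 were at 0 in the embryonic and 7570 to 8294 in the adult samples, and the 20 highest genes held 10.7% to 11.1% and 14.6% to 17.7% of the TPM. A value of 0 stood beside 2 values of 20 TPM or more in the same stage in 6 cases, so a gene at 0 in most samples of a stage is given by its values with no fold change.

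Stages were compared with limma 3.58.1 in R 4.3.3 (lmFit and eBayes with trend, two-sided) on log2(TPM + 1), a pseudocount of 1, for the 13125 genes whose mean reached 1 TPM, and called at a Benjamini-Hochberg adjusted p under 0.05 over all of them. The fit was tested on simulated data. EBSeq, named in the methods, was not used here. Symbols and positions are from GENCODE M21, which matched 21902 of 22032 rows, with 3 symbols on more than 1 row. Transcripts of that release were compared by shared stretches of 50 bases, which approximates reads that could be assigned to more than 1 gene. Promoter windows are from RefSeq, GRCm38.p6. Protein sequences were not analysed here.

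The 10 members, the gene lists and the tests were chosen with earlier results of these data known. All 10 members are named. From each list, at most 4 genes with the largest absolute fold change are named, beside genes at 0 and genes given by name in cell type markers. For each member past the threshold, the gene with the nearest pattern is named. Members of lists named by direction only, the AP-1 genes, Col1a1 and Col3a1 fall outside that rule and were chosen after their values were seen. The 17 alternative settings were leaving out each sample in turn, a block for the replicate number, a stricter adjusted p of 0.01, a pseudocount of 0.1 or 5, a filter at 5 TPM or none, median-of-ratios scaling, quantile normalization, scaling without the 20 highest genes, and eBayes made robust or run without trend. Python 3.11.15 was used for tables (numpy 2.4.6, pandas 2.3.3) and for figures (matplotlib 3.10.9).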

Additional observations from a re-analysis of the deposited data

How the results depend on the processing

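In all 17 alternative settings Mmp3, Mmp13, Mmp14, Mmp16, Mmp23, Mmp12 and Mmp28 kept their direction and stayed past the threshold. Log2 fold changes were 8.70 to 9.44 for Mmp3, 3.77 to 4.65 for Mmp13, -2.64 to -2.03 for Mmp14, -2.92 to -2.42 for Mmp16 and -2.21 to -1.40 for Mmp23. Mmp11 also stayed past the threshold, but its adult samples were at or near 0, so a call for it could only be lower. Of the 10 members, 6 to 8 passed across the settings. At an adjusted p under 0.01, 3718 of all genes passed, 1855 higher and 1863 lower, and Mmp15 was the member lost. The log2 fold change of Mmp9 turned to -0.042 under quantile normalization and -0.048 under median-of-ratios scaling, and ranged from -0.35 to 0.48 with each sample left out in turn. That of Mmp19 ranged from -0.54 to 0.73 with each sample left out. Neither gene passed the test in any setting. The adjusted p of Mmp2 ranged from 0.00843 to 0.159, and of Mmp10 from 0.00117 to 0.104. The median log2 fold change of all genes was 0.16, 0.03 under median-of-ratios scaling and 0.25 without the 20 highest genes, so the direction of Timp2, at 0.24 to 0.57, lies close to that shift. Without adult sample 1 the substrates that rose numbered 8, and without adult sample 2 A2m passed as lower (adjusted p = 0.0431). Samples of the stages share replicate numbers, but deviations of samples with the same number had correlations of -0.0088, -0.017 and -0.022. The values thus gave no sign of pairing by number. They cannot show whether samples with the same number were handled together. With the replicate number as a block, 8 members passed, Mmp2 being the added gene (adjusted p = 0.0391). The depth of the libraries does not enter the TPM values, which limits what can be said of members at a few TPM.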
